A study of Mus musculus with 16 samples.

Results

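Immediate early genes are described here in 16 RNA-seq libraries of cultured mouse aorta and liver: 30 genes, picked by name from the 24011 gene symbols of the deposited table. All 30 were in the table. The 4 groups, with 4 libraries each, were aorta with estradiol (E2, the main natural estrogen), aorta with vehicle, liver with E2 and liver with vehicle. Every donor was a female C57BL/6 mouse, ovariectomized at 6 to 7 weeks of age and dissected 1 week later. Aortas or liver pieces were then held in medium for 4 h with 10 nM E2 or with ethanol, per the labels. The labels list no uncultured tissue, so the culture itself has no comparison group, and levels below are levels after culture. By the labels, 8 libraries came from an Ovation kit and 8 from poly-A selection with a TruSeq kit, on RNA from a single aorta or liver fragment. In the series text, by contrast, a condition has 2 replicates and a replicate pools 4 mice. Columns carry the suffix n1, n2, o1 or o2, and no source used here says whether n and o mark the kits. Below, the 4 values of a group always stand in the order n1, n2, o1, o2.

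Immediate early genes are transcribed within minutes of a stimulus, without the need for newly made protein. Growth factors, depolarization, shear, wounding and tissue handling reach them through kinases such as ERK. Those kinases act on factors already bound at the promoters, among them serum response factor (SRF) with its partners, and CREB. Many of the products are transcription factors, and others shut the response down again. Mature transcripts of this class are often short-lived, and several of the genes are short and rich in G and C.

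RefSeq promoter sequences (GRCm38.p6, 250 bases before to 50 after the start) were matched for 23 of the 30 genes. They are shown for 4 genes whose levels are set out below, because these hold, between them, each kind of site that the signal factors read. Capitals mark motif letters found on either strand: the CArG box read by SRF, the cyclic AMP response element TGACGTCA read by CREB, its short form TGACG (or CGTCA), and the TATA box TATAAA. The full element contains the short form on both strands. Fos is at chr12:85473640-85473939 on the plus strand, Egr2 (the start numbered 3 of its 5) at chr10:67537619-67537918 on the plus strand, Dusp5 at chr19:53528895-53529194 on the plus strand, and Maff (start 2 of 3) at chr15:79347270-79347569 on the plus strand.
Fos: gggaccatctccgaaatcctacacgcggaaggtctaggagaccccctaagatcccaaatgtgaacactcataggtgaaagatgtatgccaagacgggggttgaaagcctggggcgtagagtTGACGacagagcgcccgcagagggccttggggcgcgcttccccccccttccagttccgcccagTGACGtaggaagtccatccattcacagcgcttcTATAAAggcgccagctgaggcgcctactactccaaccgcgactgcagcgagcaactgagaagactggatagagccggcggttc
Egr2: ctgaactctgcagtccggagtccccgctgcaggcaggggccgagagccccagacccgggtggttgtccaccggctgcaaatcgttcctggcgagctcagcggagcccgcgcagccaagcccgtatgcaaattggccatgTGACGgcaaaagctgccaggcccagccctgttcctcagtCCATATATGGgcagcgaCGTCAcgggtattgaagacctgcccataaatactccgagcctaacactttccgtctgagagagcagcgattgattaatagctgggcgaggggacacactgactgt
Dusp5: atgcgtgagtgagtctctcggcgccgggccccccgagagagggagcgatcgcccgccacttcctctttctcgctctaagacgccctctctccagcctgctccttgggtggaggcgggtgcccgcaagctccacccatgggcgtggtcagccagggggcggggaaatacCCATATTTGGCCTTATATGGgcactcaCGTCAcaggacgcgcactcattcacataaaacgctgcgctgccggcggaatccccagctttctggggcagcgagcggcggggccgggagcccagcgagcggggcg
Maff: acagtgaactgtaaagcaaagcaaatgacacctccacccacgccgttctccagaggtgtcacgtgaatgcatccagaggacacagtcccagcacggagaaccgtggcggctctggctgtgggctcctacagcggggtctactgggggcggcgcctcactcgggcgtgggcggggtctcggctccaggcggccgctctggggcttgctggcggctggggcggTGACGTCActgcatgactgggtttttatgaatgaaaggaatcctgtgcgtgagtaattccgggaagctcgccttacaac
The CArG box was found in 3 of the 23 genes (Egr2, Dusp5 and Zfp36), against 1.81% of all 27025 genes with a promoter in the table. Dusp5 held a pair of them side by side, with first bases at -82 and -72 from the start. The full element TGACGTCA was also found in 3 of the 23 genes (Dusp1, Btg2 and Maff), against 2.03% of all genes. The short form TGACG was found in 16 of the 23, against 23.0% of all genes. Fos held it at a pair of places, at -129 and -66. TATAAA was found in Fos, Junb, Nr4a2 and Cyr61, 4 of 23 against 15.7% of all genes. Its first base lay at -33 in Fos, -25 in Cyr61, 1 in Junb and, on the minus strand, -164 in Nr4a2. The AP-1 site TGANTCA, which the Fos and Jun proteins bind as dimers, was found in 0 of the 23, against 8.97% of all genes. The estrogen response element, a pair of AGGTCA sequences facing each other 3 bases apart, was likewise found in 0 of the 23. A lone AGGTCA was found in Btg2, 1 of 23, against 18.1% of all genes. These are matches of letters in a short window and say nothing of binding. Sites outside the window were not searched, in Fos or in any other gene. Fosl1, Egr1, Egr3, Ier2, Myc, Ctgf and Sik1 had no matched promoter, so none of these sites was looked for in them.

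Reads counted to genes ran from 3896733 to 19823982 per library, and 48.4% to 75.3% of all reads fell in no gene or were ambiguous. Counting error was small for most members, but Dusp2 had 0 to 3 reads per o library of either tissue, Maff 0 to 2 per liver o library, and Egr3 1 to 10 per liver library. Klf2 had 1 to 34 reads per o library of aorta and 3 to 42 per o library of liver. The tissues matched their labels: summed smooth muscle markers reached 10045 to 26952 CPM (gene counts scaled to a library of 1000000) in aorta and 172 to 461 CPM in liver, and summed hepatocyte markers 64.6 to 581 CPM in aorta and 65683 to 201017 CPM in liver. Aorta libraries also held fat markers, at 2761 to 4415 CPM against 64.9 to 254 CPM in liver. The ribosomal RNA gene Rn45s took 2.94% to 5.52% of gene counts in n libraries and 3.38% to 34.5% in o libraries. As a check of the treatment, the estrogen target Pgr was higher with E2 in aorta by 1.97 ± 0.23 log2 (SE), with an adjusted p of 0.0898 in edgeR's quasi-likelihood test, which missed the 0.05 threshold. The target Greb1 was higher there by 2.33 ± 0.45 and missed it too (adjusted p = 0.517, same test). In liver neither was tested, and their sum was 0 to 1.44 CPM with E2 and 0 to 3.15 CPM with vehicle. The treatment of liver thus has no such check.

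The 30 genes together took 1.48% to 1.62% of gene counts in n libraries of aorta, 0.506% to 0.82% in o libraries of aorta, 0.323% to 0.534% in n libraries of liver and 0.28% to 0.469% in o libraries of liver. Rn45s weighs on these shares, since it took 3.38% to 6.20% of gene counts in o libraries of aorta and 25.7% to 34.5% in o libraries of liver. With it left out, the shares were 1.54% to 1.69% in n libraries of aorta against 0.336% to 0.564% in n libraries of liver, with no overlap, and 0.539% to 0.854% in o libraries of aorta against 0.426% to 0.637% in o libraries of liver, which overlapped. Aorta held, at the median over the members, 166.6 CPM, and liver 42.2 CPM. On plain gene totals without Rn45s and without TMM scaling, these medians were 254.5 and 40.3 CPM. Per kilobase of transcript, the highest member was Ier3, a regulator of cell survival, in n libraries of aorta (999 CPM per kb). Egr1, a zinc finger factor, was highest in the o libraries of both tissues (762 CPM per kb in aorta, 489 in liver). In n libraries of liver it was Jund, a Jun subunit made in many resting cells (396 CPM per kb). Egr1 stood above 99.8% of genes in o libraries of aorta and above 95.1% of genes in n libraries of liver.

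**Figure D1:**
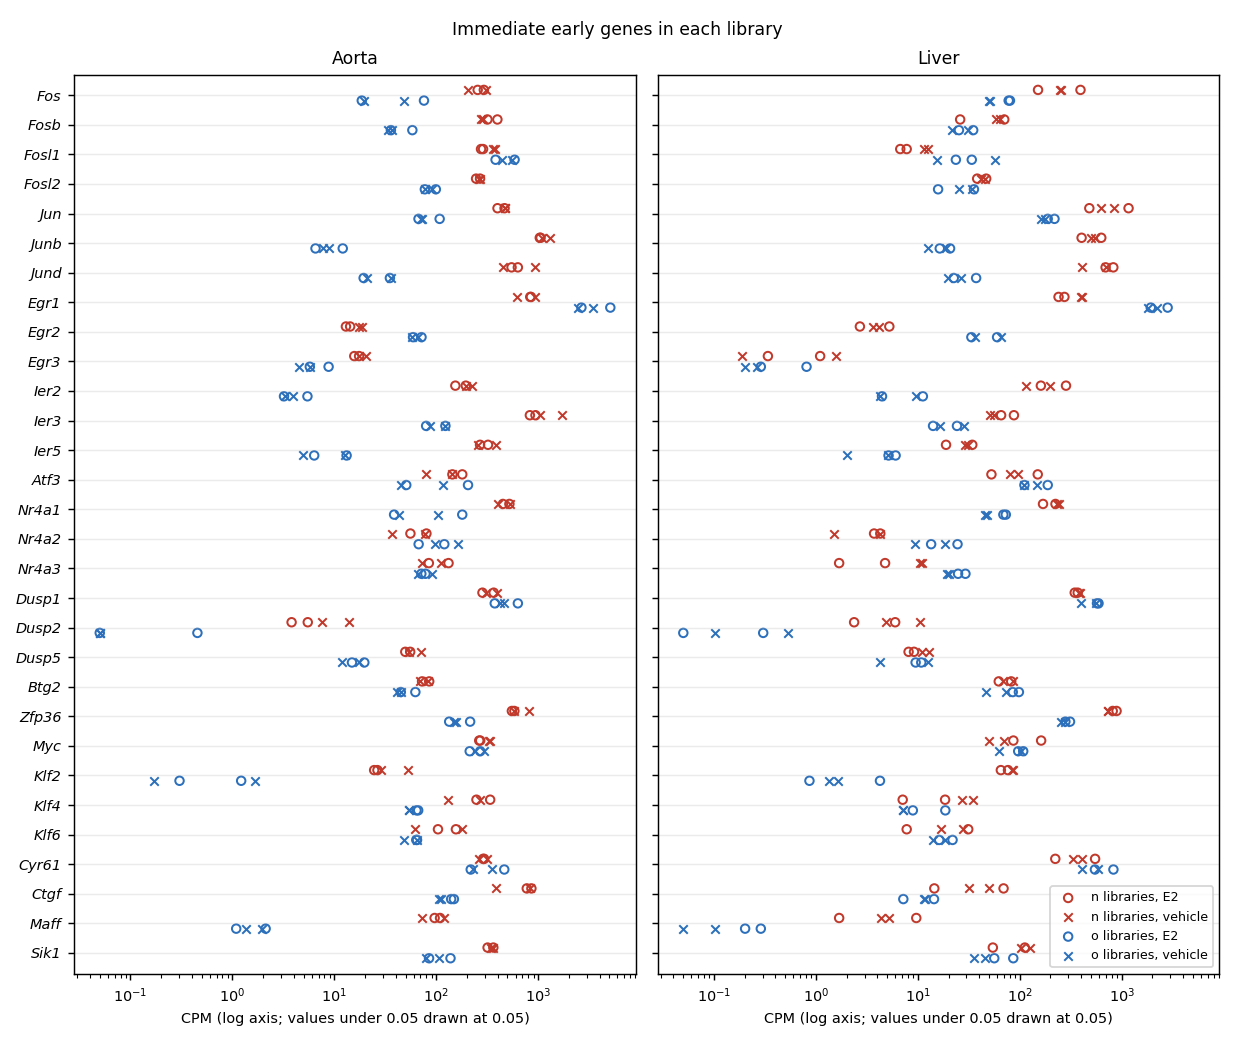
Level of each of the 30 genes in each of the 16 libraries, in CPM on a log axis, with aorta on the left and liver on the right. Red marks are n libraries and blue marks o libraries; circles are E2 and crosses vehicle. Circles and crosses of one colour lie together for most genes, while red and blue lie far apart for Junb, Jund, Ier2, Ier5, Klf2, Dusp2 and Maff.

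Cultured aorta held more of many immediate early transcripts than cultured liver. Among vehicle libraries, 16 of 30 members passed the test higher in aorta and 0 lower (edgeR's quasi-likelihood test, Benjamini-Hochberg adjusted p under 0.05 and an absolute log2 difference over 1). Of all 12607 genes tested, 24.1% passed higher and 23.4% lower. The median log2 difference of the members was 1.25, against 0.05 over all genes. By sign alone 20 members were higher in aorta and 10 lower. Levels of 10 members did not overlap between the 4 aorta and the 4 liver libraries, all higher in aorta, where 12.7% of all genes tested lay apart higher and 13.7% lower. Egr3 and Maff are among the 16 but were too scarce in liver to pass the filter on low counts there, so they entered mainly through aorta, where they are high. Over the 28 members tested within each tissue, 14 passed higher and 0 lower, against 21.7% and 22.9% of 11029 genes, with a median of 0.96 against -0.02. Of these 28, 9 lay apart higher in aorta and 0 lower, against 10.2% and 11.9% of the 11029 genes. The 2 tissues differ in cell types, as the markers show. In bulk tissue, more cells that express a gene and more RNA per cell cannot be told apart.

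Among the Fos subunits of AP-1, Fosl1 (Fra-1) stood out. It had 379, 364, 557 and 441 CPM in vehicle aorta, against 11.6, 12.5, 15.5 and 57.7 CPM in vehicle liver. Every aorta library was above every liver library. The log2 difference was 4.48 ± 0.43 (SE, adjusted p = 4.2e-06), a 22.3-fold higher level. Fosl2 (Fra-2) had 270, 264, 91.8 and 78 CPM in vehicle aorta and 41.3, 45.5, 34.2 and 25.6 CPM in vehicle liver, again without overlap. Its difference was 2.05 ± 0.31. Fosb had 287, 277, 36.9 and 33.7 CPM in vehicle aorta against 63.6, 58, 31.2 and 21.7 CPM in vehicle liver. Here the o libraries of aorta lay within the range of liver, and the difference of 1.32 ± 0.38 (adjusted p = 0.0121) came to 0.43 in the o libraries alone, where it did not pass. Without the n2 library of liver it was 1.15 and missed (adjusted p = 0.058). Fos itself, the founding member, had 310, 207, 19.7 and 47.9 CPM in vehicle aorta and 250, 254, 49.9 and 51.4 CPM in vehicle liver. Its difference of -0.35 ± 0.32 did not pass (adjusted p = 0.379).

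The make-up of the Fos family was not the same in the 2 tissues. Per kilobase, Fosl1 made up 41.1% of the summed level of the 4 Fos subunits in n libraries of aorta and 85.9% in o libraries of aorta, against 3.44% in n libraries of liver and 29.2% in o libraries of liver. Fos made up 29.6% and 6.26% in the n and o libraries of aorta, and 82.6% and 51.3% in the n and o libraries of liver. Fosl1 was thus the largest share in aorta and Fos the largest in liver, with both types of library. These shares were given as a description, and no test was made of them.

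The Jun subunits, which pair with Fos proteins, did not share this direction. Jun had 470, 474, 72 and 70.7 CPM in vehicle aorta, against 849, 623, 176 and 160 CPM in vehicle liver. Within either library type every aorta value was below every liver value. The difference of -0.96 ± 0.29 had an adjusted p of 0.0142 but stayed just inside the size threshold. In the o libraries alone it was -1.24 and passed, as it did without the n2 library of aorta (-1.01) or without that of liver. Junb had 1091, 1296, 8.85 and 7.67 CPM in vehicle aorta and 504, 542, 18.9 and 12.6 CPM in vehicle liver. Its sign turned with the library type: the log2 difference was 1.05 in n libraries alone, where it passed, and -0.90 in o libraries alone, where it did not. Jund differed by 0.26 ± 0.33 and Atf3, a stress-induced partner of Jun, by -0.23 ± 0.39, and neither passed. Maff, a small Maf protein that has no activation domain, had 118, 73.1, 1.36 and 1.94 CPM in vehicle aorta and 4.32, 5.23, 0 and 0.102 CPM in vehicle liver. It was higher in aorta within either type. With so few liver reads, and a place in the fit that rests mainly on aorta, no test is given for it.

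Zinc finger factors gave a divided picture. Egr3 had 20.6, 17.4, 5.79 and 4.51 CPM in vehicle aorta and 0.188, 1.58, 0.267 and 0.203 CPM in vehicle liver, with no overlap. A liver library held at most 10 reads of it, and no test is given for it. Egr2, a factor known from Schwann cells and from T cell anergy, had 18.9, 17.3, 57.7 and 65.8 CPM in vehicle aorta against 4.13, 3.64, 36.6 and 65.9 CPM in vehicle liver. The aorta lead of 1.19 ± 0.40 (adjusted p = 0.0277) was 2.08 in n libraries alone and 0.31 in o libraries alone, where it did not pass. Without aorta n2, liver n1 or liver n2 it missed too (1.01 to 1.09, adjusted p of 0.0565 to 0.104). Egr1 had 927, 613, 2483 and 3433 CPM in vehicle aorta and 407, 402, 1819 and 2206 CPM in vehicle liver. It was higher in aorta within either type, but the difference of 0.71 ± 0.31 did not pass (adjusted p = 0.0704).

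Klf4, a Krüppel-like factor that represses contractile genes in smooth muscle, had 270, 129, 53.5 and 54.4 CPM in vehicle aorta against 27, 34.7, 7.21 and 7.21 CPM in vehicle liver. The groups did not overlap and differed by 2.76 ± 0.33 (adjusted p = 2.41e-05). Klf6 had 178, 61.3, 64.7 and 48.2 CPM in vehicle aorta and 16.7, 28, 18.4 and 14.1 CPM in vehicle liver, a difference of 2.08 ± 0.38. Klf2, the shear-induced factor of endothelium, leaned the other way. It had 28.9, 53.1, 0.17 and 1.65 CPM in vehicle aorta, against 84.3, 85.2, 1.33 and 1.63 CPM in vehicle liver. Its difference of -0.95 ± 0.40 did not pass (adjusted p = 0.0663), but it passed in n libraries alone, at -1.19, and without the o2 library of aorta (-1.27) or of liver (-1.17). Summed markers of endothelium ran from 408 to 744 CPM in vehicle aorta and from 260 to 868 CPM in vehicle liver, and the part of cell make-up in the Klf2 values was not tested.

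The orphan nuclear receptors of the Nr4a group also parted. Nr4a2 had 77, 37.1, 97.2 and 163 CPM in vehicle aorta against 1.5, 4.28, 9.34 and 18.6 CPM in vehicle liver, without overlap, and differed by 3.70 ± 0.42 (adjusted p = 1.83e-05). Nr4a3 had 112, 72.8, 90.7 and 66.5 CPM in vehicle aorta and 11.1, 10.6, 19.2 and 20.3 CPM in vehicle liver, a difference of 2.50 ± 0.34. Nr4a1 had 406, 526, 43.2 and 103 CPM in vehicle aorta and 230, 242, 47.2 and 45.9 CPM in vehicle liver. The groups overlapped, and its difference of 0.74 ± 0.31 did not pass (adjusted p = 0.0621). Without either o1 library it came to 1.13 (aorta o1 left out) or 1.12 (liver o1 left out) and passed.

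Myc, the growth regulator, had 327, 337, 295 and 240 CPM in vehicle aorta, against 49.4, 70, 62.2 and 102 CPM in vehicle liver. No library overlapped, and the difference was 2.09 ± 0.32 (adjusted p = 0.000183). Ctgf (Ccn2), a secreted matricellular protein, had 827, 390, 111 and 107 CPM in vehicle aorta and 32.1, 50.2, 11.7 and 11.5 CPM in vehicle liver, a difference of 3.54 ± 0.36 (adjusted p = 7.43e-06). Its relative Cyr61 (Ccn1) had 264, 313, 231 and 356 CPM in vehicle aorta and 410, 332, 411 and 585 CPM in vehicle liver. Every aorta library of Cyr61 was below the liver library of the same suffix, but the difference of -0.59 ± 0.28 did not pass (adjusted p = 0.0912).

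Of the members that damp the response, Dusp5, a nuclear phosphatase of ERK, had 70.6, 54.4, 17.5 and 11.9 CPM in vehicle aorta and 10.9, 13, 4.27 and 12.5 CPM in vehicle liver. The difference was 1.68 ± 0.44 (adjusted p = 0.00735). In o libraries alone it was 0.86 and did not pass. Dusp1, a phosphatase of p38 and JNK, had 398, 311, 422 and 460 CPM in vehicle aorta and 391, 383, 559 and 397 CPM in vehicle liver, and differed by -0.14 ± 0.28. Zfp36 (tristetraprolin), which speeds decay of AU-rich transcripts, had 580, 805, 148 and 155 CPM in vehicle aorta and 729, 740, 255 and 275 CPM in vehicle liver, and differed by -0.47 ± 0.29. Btg2 and Dusp2 differed by -0.26 ± 0.27 and -0.01 ± 0.49. None of these last 4 passed.

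Ier3 had 1051, 1699, 86 and 121 CPM in vehicle aorta, against 51.1, 56.4, 16.5 and 28.6 CPM in vehicle liver. It differed by 3.45 ± 0.52 without overlap (adjusted p = 0.00017). Ier5, a nuclear regulator of heat shock factor 1, had 387, 257, 12.6 and 4.95 CPM in vehicle aorta and 29.1, 30.7, 5.07 and 2.03 CPM in vehicle liver. Its difference of 2.45 ± 0.45 was 3.28 in n libraries alone and 1.29 in o libraries alone, where it did not pass. Ier2 differed by -0.15 ± 0.35. Sik1, a salt-inducible kinase that restrains CREB coactivators, had 360, 344, 79 and 106 CPM in vehicle aorta and 103, 126, 35.2 and 46 CPM in vehicle liver. It differed by 1.38 ± 0.27 (adjusted p = 0.00113), higher in aorta at each suffix.

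Within the n libraries alone 17 of 30 members passed higher in aorta and 1 lower, against 23.6% higher and 23.9% lower over all genes. Within the o libraries alone, 12 of 29 passed higher and 1 lower, against 20.9% higher and 23.4% lower over all genes. All 12 also passed in the n libraries alone and in the fit of all 8: Fosl1, Fosl2, Egr3, Ier3, Nr4a2, Nr4a3, Myc, Klf4, Klf6, Ctgf, Maff and Sik1. Without Egr3 and Maff these are 10. Of 28 members tested within each tissue, 15 passed higher and 1 lower in n libraries alone, against 21.9% and 22.8% of 10926 genes. Of 27 such members in o libraries alone, 10 passed higher and 1 lower, against 18.5% and 22.5% of 10521 genes. The lower call was Klf2 in the n libraries and Jun in the o libraries.

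**Figure D2:**
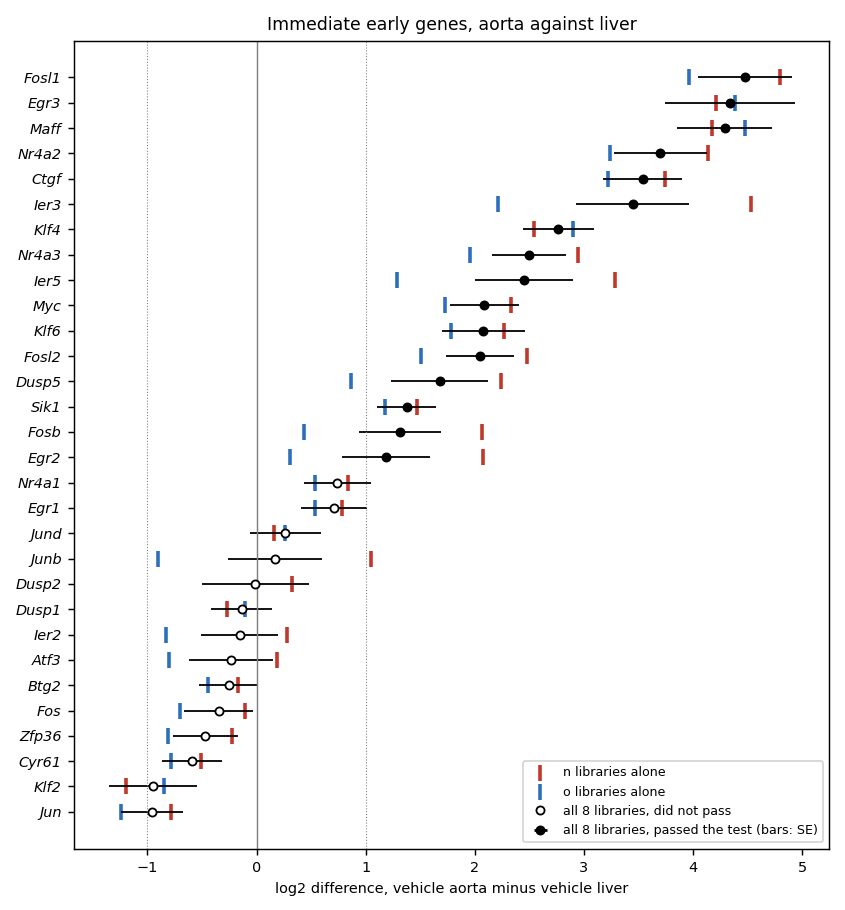
Log2 difference of each gene, vehicle aorta minus vehicle liver, sorted by size. Circles are the fit over all 8 vehicle libraries with SE bars, filled where the test passed; red and blue ticks are the n and the o libraries alone; dotted lines are at -1 and 1. The filled circles run from 1.19 for Egr2 to 4.48 for Fosl1, with Egr3 and Maff, which entered mainly through aorta, among them, and Junb has its red and blue ticks on opposite sides of 0.

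Genes upstream of or beside the members did not all lean to aorta. Over all 12607 genes tested, 24.1% passed higher in aorta and 23.4% lower, and the lists below were not tested against these shares. Of 24 genes of the SRF and ERK pathway, 7 passed higher in aorta and 5 lower. Rps6ka3, an ERK-activated kinase, passed higher (log2 2.78) and its relative Rps6ka1 lower (-2.98). Of 34 other rapidly induced genes tested, 14 passed higher and 5 lower. The growth factor Hbegf (5.37) and the synaptic gene Arc (4.53) led the higher ones, and the polo-like kinase Plk3 (-2.35) and Id2 (-2.15) the lower ones. Of 14 partners of AP-1 tested, 6 passed higher, led by Ddit3 (2.49), and 3 lower, led by Maf (-2.57). Of 13 heat shock genes, which report on protein stress, 3 passed higher and 2 lower. The lower pair was Hspa1a (-1.47) and Hspa1b (-1.53), near-identical copies whose reads counting cannot always separate.

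Many members differed strongly between n and o libraries, and most of these were higher in n. In aorta, 19 of 30 members passed higher in n libraries and 2 lower, against 33% higher and 28.1% lower over all 13698 genes. In liver, 12 of 28 members tested passed higher in n libraries and 5 lower, against 33.7% higher and 35.7% lower over all 11726 genes. The median log2 difference of the members was 1.78 in aorta, against 0.13 over all genes, and 0.81 in liver, against -0.08. The kit, the number of mice behind a library, the RNA input and the sequencing run may all differ between n and o, and cannot be told apart. Of the 28 members tested in both tissues, 12 passed higher in n libraries in both and 2 lower in both, against 25.5% and 25.3% of 11118 genes. Opposite calls were 0 among the members and 0.468% over all genes. Dusp2 was under the filter's count in every o library and entered through the n libraries alone; without it 18 of 29 members passed higher in aorta and 11 of 27 in liver. Klf2 reached that count in 2 of 4 o libraries of aorta and 1 of 4 of liver. It too entered mainly through the n libraries, where it is high, and is still among the counts given. Dusp2 and Klf2 are both among the 12 members higher in n libraries in both tissues. The others of the 12 are Fos, Jun, Junb, Jund, Ier2, Ier3, Ier5, Nr4a1, Zfp36 and Ctgf.

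Junb gave the largest difference in aorta. Its n libraries had 1037 and 1056 CPM with E2 and 1091 and 1296 CPM with vehicle. Its o libraries had 12.1 and 6.54 CPM with E2 and 8.85 and 7.67 CPM with vehicle. This was a 119.6-fold higher level in n libraries (log2 6.90 ± 0.27, adjusted p = 6.43e-08). In liver the n libraries of Junb had 404 to 630 CPM and the o libraries 12.6 to 20.7 CPM, a 28.7-fold higher level (4.84 ± 0.28). Jund was 20.8-fold higher in n libraries in aorta and 23.2-fold higher in liver. Ier2 was 46.0-fold and 25.1-fold higher, and Ier5 32.1-fold and 6.07-fold, in aorta and in liver. Klf2 had 638 to 725 reads per n library and 1 to 34 per o library of aorta. In liver Klf2 had 193 to 627 per n library and 3 to 42 per o library, and no fold is given for it. For Maff the aorta difference was 55.8-fold, on only 8 to 40 reads per o library of aorta, and in liver it was not tested for lack of reads. Dusp2, a phosphatase of immune cells, had 99 to 192 reads per n library and 0 to 3 per o library of aorta, and no fold is given for it.

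Egr1 and Egr2 went the other way in both tissues. In aorta the n libraries of Egr1 had 849 and 836 CPM with E2 and 927 and 613 CPM with vehicle, against o libraries of 2656 and 5103 CPM with E2 and 2483 and 3433 CPM with vehicle. This was a log2 difference of -2.21 ± 0.29. In liver it was -2.84 ± 0.27. Egr2 differed by -2.13 ± 0.20 in aorta and -3.69 ± 0.34 in liver. Per kilobase, mean Egr1 was 180 and mean Junb 619 CPM per kb in n libraries of aorta, and 762 and 4.9 CPM per kb in o libraries of aorta. The same turn was seen in liver, with 73.8 against 287 CPM per kb in n libraries and 489 against 9.5 CPM per kb in o libraries. In liver Fosl1 (-1.88), Nr4a2 (-2.34) and Nr4a3 (-1.94) also passed lower in n libraries. With the vehicle libraries alone Nr4a3 was -0.97 and no longer passed. Myc differed by 0.12 ± 0.17 in aorta and -0.18 ± 0.26 in liver, and Dusp1 by -0.60 ± 0.24 and -0.59 ± 0.23, none of which passed both thresholds. Leaving out 1 library let Nr4a2 (-1.08 to -1.22) or Klf6 (1.03 to 1.15) pass in some aorta fits. In liver, Klf4 (1.33 and 1.37) passed without E2 n2 or E2 o2, and Fosb and Sik1 (1.05) without E2 n2.

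Shares within the Jun family also went with library type. Per kilobase, Junb made up 54.1% of the 3 Jun subunits in n libraries of aorta and 10.5% in o libraries of aorta, while Jun made up 12.4% and 53.7%. Jund made up 33.6% and 35.8%. In liver Jund was the largest share in n libraries, with 42.6%, and had 19.0% in o libraries. Junb made up 31.0% in n libraries of liver and 11.4% in o libraries of liver, and Jun 26.4% and 69.6%.

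The reference transcripts of the members had a median G+C content of 54.5%, against 49.3% over all protein-coding genes matched, and a median length of 2521.5 bases against 2794. Of the 30, 5 have a single exon (Jun, Junb, Jund, Ier2 and Ier5). Across the members, the log2 difference of n minus o libraries ran with G+C (Spearman's rho 0.51 over 30 genes in aorta and 0.51 over 28 genes in liver), as it did across all protein-coding genes tested (0.63 over 13285 in aorta and 0.56 over 11448 in liver). With transcript length the rho of the members was -0.45 in aorta and -0.43 in liver, and that of all genes -0.38 and -0.58. These are descriptions across genes of the same libraries, which are not independent replicates, and the part of G+C or length in the differences was not tested.

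**Figure D3:**
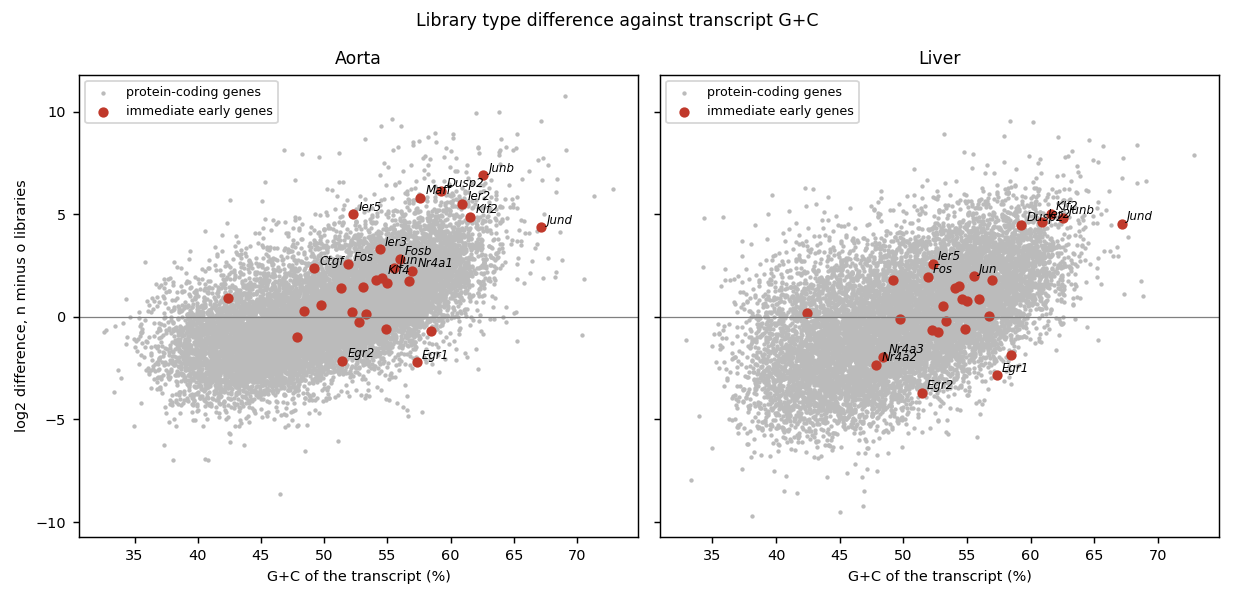
Log2 difference of n minus o libraries (vertical) against the G+C percentage of the reference transcript (horizontal), in aorta on the left and liver on the right. Red points are immediate early genes, named where the difference passes 1.9 in size, and grey points are all protein-coding genes tested. Junb, Jund, Ier2, Klf2 and Dusp2 lie at the upper right in both tissues, while Egr1 and Egr2 lie below 0 in both.

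The n minus o log2 difference lay higher on the signed scale in aorta than in liver for 9 of 30 members and lower for 0 (interaction term over all 16 libraries), against 18.8% and 8.96% of 14190 genes. These were Ier5 (2.38 ± 0.49), Nr4a3 (2.20 ± 0.49), Junb (2.07 ± 0.35), Fosb (2.00 ± 0.38), Ier3 (1.83 ± 0.39), Dusp5 (1.73 ± 0.42), Egr2 (1.58 ± 0.39), Nr4a2 (1.43 ± 0.50) and Fosl1 (1.20 ± 0.43). The median of the members was 0.85 against 0.41 over all genes. With DESeq2's size factors in place of TMM both medians came down, to 0.59 and 0.14, and Fosl1 and Nr4a2 no longer passed. Leaving out suffix n1 left 5 of the 30 past the threshold, without Fosl1, Nr4a2, Nr4a3 and Dusp5. Leaving out o2 brought Fosl1 to 0.23, lost Nr4a2 and Dusp5 as well, and let Fos (1.72), Atf3 (2.29) and Nr4a1 (1.68) pass. Fosl1 also missed without n2 and Nr4a2 without o1, where Fosl2 (1.14) passed. With the vehicle libraries alone 0 members and 0 genes passed, though the 9 values kept their sign (1.12 to 2.52). A positive value is not always a larger difference. Nr4a3 had 0.27 in aorta and -1.94 in liver, and Egr2 (-2.13 and -3.69), Nr4a2 (-0.97 and -2.34) and Fosl1 (-0.71 and -1.88) were lower in n libraries in both tissues, by less in aorta.

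Neighbouring lists showed both directions with library type, as did all genes. Over all genes tested, 33% passed higher in n libraries and 28.1% lower in aorta, and 33.7% higher and 35.7% lower in liver. The lists were not tested against these shares. In aorta 20 of 35 other rapidly induced genes passed higher in n libraries and 6 lower, led by Cebpb (9.58) and by Plk2 (-1.66). In liver 15 of 33 passed higher and 8 lower, led by Ier5l (6.87) and by Tiparp (-3.06). The SRF and ERK pathway had 8 higher and 7 lower of 24 in aorta, and 3 higher and 9 lower in liver. Creb1, which encodes CREB, passed lower in n libraries in aorta (-5.04) and in liver (-5.74). Partners of AP-1 had 8 higher and 2 lower of 16 in aorta, and 4 higher and 6 lower of 15 in liver. Heat shock genes had 5 higher and 3 lower of 13 in aorta, and 3 higher and 4 lower in liver.

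After 4 h with E2, no immediate early gene passed the test in either tissue. No earlier time was sampled, so a response that rose and fell before 4 h was not measured. In aorta 0 of 30 members passed, against 0% of 13698 genes, and 1 member and 495 genes had an unadjusted p under 0.05. In liver 0 of 28 passed, against 0% of 11726 genes, and 1 member and 502 genes had an unadjusted p under 0.05. DESeq2 called 24 genes in aorta and 0 in liver, and 0 of them were members. Without the n2 library of aorta with vehicle, edgeR called 17 genes in aorta and still 0 members. The difference of the E2 effect between aorta and liver passed for no member (0 of 30, against 0% of 14190 genes, with 1 member and 761 genes at an unadjusted p under 0.05). For 0 members did the 4 E2 and the 4 vehicle libraries separate, in either tissue. Over all genes tested, 0.241% separated higher and 0.161% lower in aorta, and 0.179% in each direction in liver.

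The E2 differences in aorta were split by sign, 15 higher and 15 lower, with a median log2 of 0.01. They ran from -0.97 ± 0.56 for the scarce Dusp2 to 0.51 ± 0.22 for Atf3, and 27 of 30 were under 0.5 in size. Their SE ran from 0.14 to 0.56, with a median of 0.19. Atf3 had 180, 144, 50.8 and 205 CPM with E2 and 144, 78.7, 45.6 and 116 CPM with vehicle, higher with E2 at each suffix (adjusted p = 1.00, edgeR); it was the 1 member with an unadjusted p under 0.05. Fos had 293, 255, 18.6 and 75.8 CPM with E2 in aorta and 310, 207, 19.7 and 47.9 CPM with vehicle, a difference of 0.18 ± 0.20. Egr1 differed by 0.22 ± 0.18. The suffixes did not move alike: 11 members were higher with E2 at n1, 12 at n2, 14 at o1 and 20 at o2. Atf3 and Klf4 were higher at all 4, and Myc was lower at all 4. In o libraries alone 21 members were higher and 8 lower (median 0.20), and in n libraries alone 13 were higher and 17 lower (median -0.09).

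In liver 18 members were higher with E2 and 10 lower, with a median log2 of 0.13 against -0.01 over all genes. In o libraries alone 22 were higher and 5 lower (median 0.32), and in n libraries alone 11 were higher and 18 lower (median -0.04). The n suffixes did not move alike: 21 members were higher with E2 at n1 and 5 at n2. The split was thus not one of library type alone. In the fit over both types, the highest was Myc, with Dusp2 at the other end (-0.71 ± 0.67, on few reads). Myc had 162, 86.5, 96.5 and 108 CPM with E2 and 49.4, 70, 62.2 and 102 CPM with vehicle. It was 1 of 4 members higher with E2 at each suffix, with Jund, Ier2 and Zfp36, by 0.71 ± 0.24 (adjusted p = 0.939, edgeR), and was the 1 member with an unadjusted p under 0.05. Leaving out 1 library moved its difference to between 0.46 (E2 n1) and 0.94 (vehicle o2). Fos had 394, 151, 77.8 and 80.1 CPM with E2 in liver and 250, 254, 49.9 and 51.4 CPM with vehicle, a difference of 0.36 ± 0.25. Egr1 had 274, 240, 1928 and 2822 CPM with E2 and 407, 402, 1819 and 2206 CPM with vehicle, a difference of -0.21 ± 0.23 whose sign was negative in n and positive in o libraries.

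In aorta Myc leaned the other way, with 264, 270, 270 and 213 CPM with E2 and 327, 337, 295 and 240 CPM with vehicle, lower with E2 at each suffix (-0.25 ± 0.14). The E2 effect on Myc, aorta minus liver, was -0.95 ± 0.32 (adjusted p = 0.875, edgeR). Myc was again the 1 member with an unadjusted p under 0.05, and it did not pass.

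The n2 library of liver with E2 stood apart from its partner. Of 30 members, 27 were higher in n1 than in n2 of liver with E2, with a median log2 difference of 0.78, while 69.4% of all genes were higher, with a median of 0.31. In liver with vehicle, 11 of 30 were higher in n1 than in n2. Accordingly 5 members were higher with E2 at n2 of liver, against 21 at n1, 25 at o1 and 26 at o2. Without this library the members' median E2 difference in liver was 0.27, against 0.04 over all genes, and 0 members passed. Without E2 o2 it was 0.01.

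**Figure D4:**
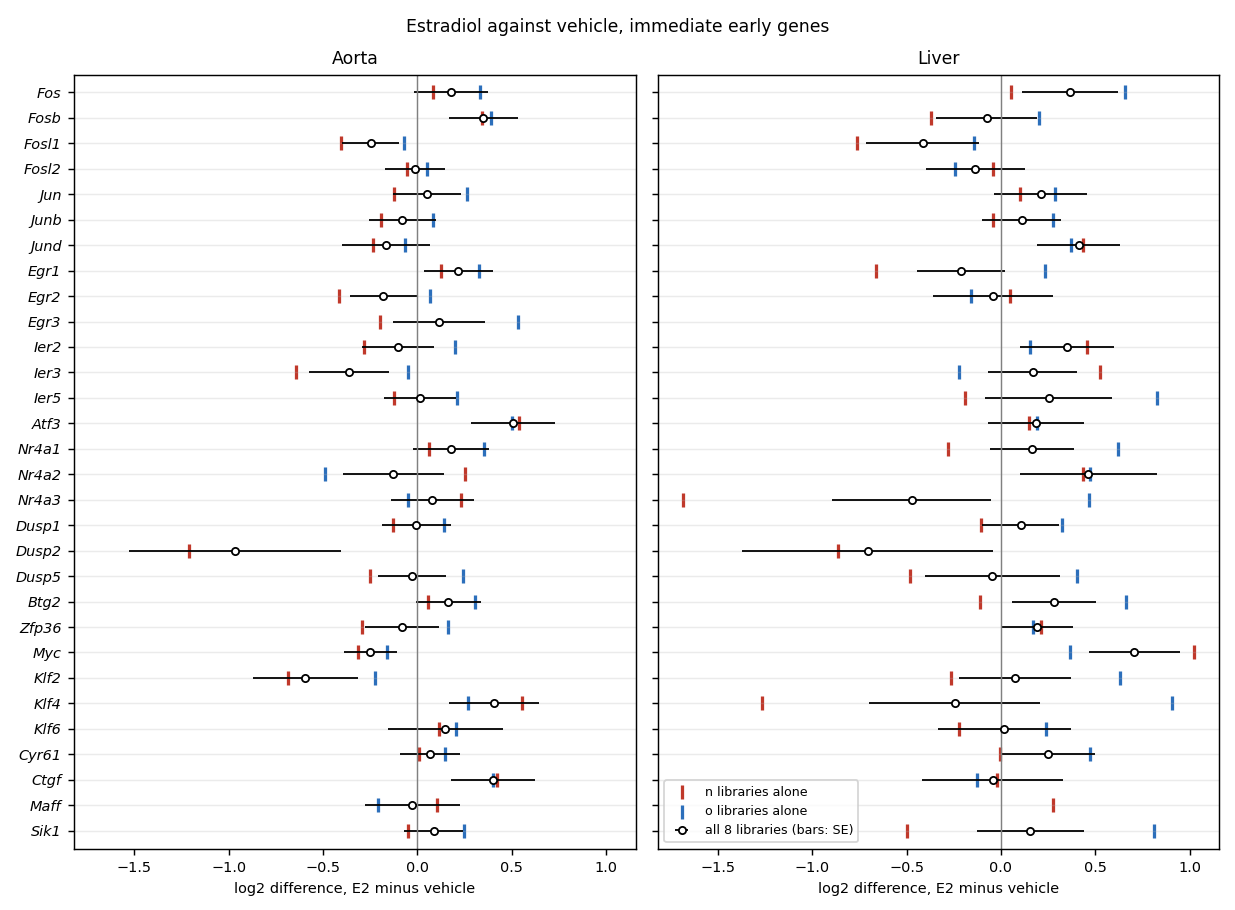
Log2 difference of each gene, E2 minus vehicle, in aorta on the left and liver on the right. Open circles are the fit over the 8 libraries of a tissue with SE bars, and red and blue ticks are the n and the o libraries alone; Egr3 and Maff were not tested in liver over all 8 libraries. Circles lie on both sides of 0 and none passed the test.

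Cell type markers were read beside the E2 values. In aorta the summed lymphocyte markers ran from 10.1 to 23.9 CPM with E2 and from 10.3 to 148 CPM with vehicle, and neutrophil markers from 2.76 to 17.9 CPM with E2 and from 1.70 to 55.1 CPM with vehicle. Macrophage markers ran from 124 to 200 CPM with E2 and from 134 to 204 CPM with vehicle. No gene of these lists was at 0 in a whole aorta group. By sign of the fitted E2 difference in aorta, all tested lymphocyte (7), fibroblast (6), hepatocyte (6), macrophage (6), neutrophil (4) and sinusoidal endothelial (4) markers were lower, with medians of -1.98, -0.08, -0.85, -0.10, -0.75 and -0.92. Smooth muscle markers in aorta had 5 higher and 2 lower. Endothelial (3 and 3), fat (3 and 3) and striated muscle markers (2 and 2) split evenly there. Summed lymphocyte markers in aorta were higher with E2 at o1 and n1. They were lower at n2 (10.1 against 148 CPM) and o2 (23.9 against 70.6 CPM). Neutrophil and sinusoidal endothelial sums in aorta were higher with E2 at o1 alone, and macrophage and fibroblast sums at n2 alone. In liver all 7 hepatocyte markers were higher with E2 by fitted sign (median 0.20), but their sum went with library type. It was 201017, 174115, 65683 and 67193 CPM with E2, and 129082, 108897, 68872 and 104712 CPM with vehicle. The sum was thus higher with E2 at n1 and n2 and lower at o1 and o2. All tested macrophage (7), lymphocyte (6), sinusoidal endothelial (5) and neutrophil (3) markers were lower there, with medians of -0.35, -0.63, -0.46 and -0.50, as were 5 of 6 endothelial markers (-0.33). Smooth muscle markers in liver had 5 higher and 1 lower, fibroblast markers 2 and 2, and the 1 fat marker tested was lower. No marker of these lists passed the test. Summed lymphocyte markers in liver were scarce and ran from 22.4 to 31.8 CPM with E2 and from 32.8 to 68.3 CPM with vehicle. These ranges nearly touched, and the sums were not tested. Summed sinusoidal endothelial markers overlapped, at 494 to 1572 CPM with E2 and 635 to 1498 CPM with vehicle. Their part in the member values was not tested. None of the lists of neighbouring genes had a member that passed with E2, in either tissue: 0 of 24 genes of the SRF and ERK pathway, 0 of 35 other rapidly induced genes, 0 of 16 AP-1 partners and 0 of 13 heat shock genes in aorta, and 0 of 24, 33, 15 and 13 tested in liver. Over all genes tested, 0% passed in either tissue.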

How the data were processed

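RNA was measured by sequencing in 16 libraries, and the deposited table holds, per gene symbol, whole-number reads entered under the unit of expected counts. Per the submitters' processing notes, Bowtie 0.12.5, HTSeq 0.4.5p7, edgeR 3.4.2 and mouse build mm9 were used; the annotation and strand setting were not given. Reads of overlapping or antisense genes therefore cannot be told apart. Gene values were already whole, so rounding changed none. Lines that name no gene stayed out of library sizes and tests. The 30 members, the gene lists and the tests were chosen with earlier results of these data known.

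Columns were assigned to groups by tissue and treatment. Tests used the quasi-likelihood model of edgeR 4.0.16, under R 4.3.3 (glmQLFit, glmQLFTest, TMM, filterByExpr with minimum count 10 and minimum total 15), with Benjamini-Hochberg adjustment over all genes tested and a threshold of 0.05. Comparisons of tissues and of library types also needed an absolute log2 difference over 1. E2 against vehicle and aorta against liver had a batch of 3 levels (o1, o2, n) as covariate; n against o had treatment. Interactions were fitted over all 16 libraries. CPM were computed on TMM library sizes; fits used each comparison's own libraries, so a fitted difference need not equal a ratio of CPM. SE is the absolute log2 difference divided by the square root of F. All 30 members are named; of other lists, at most the 3 largest past the threshold in each direction. The scripts were checked on simulated counts. Other settings tried were RLE size factors, no filter, DESeq2 1.42.0, limma voom (limma 3.58.1), a replicate block, one library type alone, vehicle libraries alone and leaving out libraries.

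The labels and the series text differ on whether a library holds 1 animal or a pool, so p-values measure only the spread between these libraries. Transcript length, exon number and G+C came from GENCODE M21 transcripts (23629 of 24011 symbols, 98.4%, matched), and promoters from RefSeq on GRCm38.p6, a build other than mm9. Intervals and SE cover the spread between libraries and counting error only.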

Additional observations from a re-analysis of the deposited data

Results flagged for a closer look

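In 7 of the 120 sets of 4 libraries (30 members in 4 groups), 1 library lay far from the other 3. Chance gives about 1 in 20 for 4 libraries of one kind, but each set here mixes n and o libraries, so that rate is no yardstick for the 7. Liver with E2 held 2 of these, both in its n1 library: Ctgf at 69.3 CPM and Maff at 9.65 CPM. Aorta with E2 held Myc at 213 CPM in o2, lower than the other 3, and aorta with vehicle held Klf6 at 178 CPM in n1. Liver with vehicle held 3: Fosl1 at 57.7 CPM in o2, Egr3 at 1.58 CPM in n2 and Dusp1 at 559 CPM in o1.

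The difference between n and o libraries was not the same in aorta and liver for 9 members, in signed value, by the interaction term over all 16 libraries (aorta minus liver, log2): Fosb 2.00, Fosl1 1.20, Junb 2.07, Egr2 1.58, Ier3 1.83, Ier5 2.38, Nr4a2 1.43, Nr4a3 2.20 and Dusp5 1.73. Their cause was not tested.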

How the results depend on the processing

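With E2, 0 members passed under every setting tried in aorta, in liver and in the interaction, the replicate block included, but counts over all genes moved. In aorta DESeq2 called 24 genes, the replicate block 12, the o libraries alone 33 and the fit without aorta vehicle n2 17, against 0. In liver, no filter gave 6 genes, the o libraries alone 5 and the n libraries alone 1, against 0. In the interaction, DESeq2 gave 10, the o libraries alone 2 and the replicate block 1, against 0. Aorta against liver gave 16 members under RLE, no filter, DESeq2, voom and the replicate block, 13 in the o libraries alone, 18 in the n libraries alone, and 15 to 17 without 1 library. With voom Egr2 missed (0.93) and Klf2 passed (-1.11). Without liver vehicle n2 Fosb missed, and Egr2 missed without liver vehicle n1, liver vehicle n2 or aorta vehicle n2. The n against o counts were 21 or 22 members in aorta, and 16 to 21 in liver. Their difference between tissues went to 0 members with the vehicle libraries alone and to between 5 and 9 without 1 suffix, against 9; the cause was not tested. RLE moved the median of all genes in that comparison to 0.14, against 0.41. The members' median level in aorta was 254.5 CPM on plain totals without Rn45s, against 166.6, and in liver 40.3 against 42.2. The suffixes are not stated to mark shared animals. Deviations of equal suffixes correlated at 0.50 (o) and 0.43 (n) in aorta, and 0.25 (o) and -0.05 (n) in liver. The main fits give n1 and n2 the same batch level, so what equal n suffixes share stays in their spread. The replicate block takes that part out, and its results are given only here. Depth limited Klf2 in o libraries, and Dusp2, Egr3 and Maff. E2 differences of Egr3 and Maff were not detectable in liver.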
